A study of Danio rerio with 12 samples.

Results

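Primary growth follicles of the zebrafish ovary contained 51 genes that were low in cdkn1a heterozygotes at 50 days post-fertilization (dpf) and high in wild-type fish of that age, and that were low in either genotype at 8 months post-fertilization (mpf). They are called the early-loss genes here, and they were 51 of the 32057 genes in the deposited tables. In all, 248 genes met the conditions at 50 dpf and between ages in wild type, and for 155 of these heterozygotes were over 1.5-fold lower and for 42 over 1.5-fold higher than wild type at 8 mpf. The 51 genes were selected on the group means of the authors' deposited normalized values, each group having 3 libraries. A gene had to have a mean of at least 100 in wild type at 50 dpf, at least 3 times the mean of heterozygotes at 50 dpf and at least 3 times the mean of wild type at 8 mpf. The mean of heterozygotes at 8 mpf had to lie between 1/1.5 and 1.5 times that of wild type at 8 mpf. The lowest wild-type library at 50 dpf also had to exceed the highest library of heterozygotes at 50 dpf and of wild type at 8 mpf. The differences among these groups therefore chose the genes, and they are given below as descriptions with no test.

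The 12 libraries fell into 4 groups: cdkn1a +/- follicles at 8 mpf (HE), cdkn1a +/+ follicles at 8 mpf (WT), HE follicles at 50 dpf and WT follicles at 50 dpf. All fish were of the AB strain, the gene had been disrupted with CRISPR/Cas9, and heterozygotes were used because embryos without a working copy die, per the series' design text. The labels give neither the number of fish behind a library nor whether the replicates came from separate fish, so the spread between libraries may be technical. Each library is a bulk sample, and in such data fewer cells of a type and less RNA per cell cannot be told apart.

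The gene cdkn1a encodes p21, an inhibitor of cyclin-dependent kinases that p53 induces and that can halt the cell cycle. Primary growth follicles hold an oocyte arrested in meiotic prophase, wrapped in a thin layer of somatic follicle cells, before yolk proteins accumulate. Fibrinogen is a plasma protein made mainly by the liver, and the apolipoproteins that appear among the early-loss genes are plasma proteins too. Chymotrypsinogen is an enzyme of the exocrine pancreas, and Hox proteins are transcription factors that give cells a position along the body axis.

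Library totals ran between 31044931 and 96839220 estimated counts. Genes with a count numbered 20663, 19272 and 21771 in HE and 20569, 22525 and 20895 in WT at 8 mpf. At 50 dpf they numbered 18903, 19140 and 19510 in HE and 22496, 21046 and 22016 in WT. Replicate 2 of HE and of WT at 50 dpf had similar totals, 31806697 and 31044931. Scaling factors (TMM) at 50 dpf were 0.757, 0.893 and 0.893 in HE and 1.03, 1.08 and 1.09 in WT. The part of these differences in the low HE values was not tested. The disrupted gene itself had normalized values of 19.4, 32.0 and 27.0 in HE and 33.2, 52.8 and 38.7 in WT at 8 mpf, against 21.5, 18.4 and 27.3 in HE and 172, 187 and 177 in WT at 50 dpf. All HE libraries thus lay below all WT libraries of the same age. Replicates differed beyond sampling noise in every pair, with a chi-square per degree of freedom between 14.3 and 89.5. The largest values belonged to pairs with WT replicate 2 at 8 mpf and with HE replicate 1 at 50 dpf. Of the marker genes matched, 27 of 27 for oocytes and 26 of 30 for follicle somatic cells passed the filter on low counts.

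All 51 genes passed the filter on low counts that was applied before testing. Their summed normalized value was 3158, 3129 and 3163 in HE and 2911, 3717 and 2993 in WT at 8 mpf, against 3441, 3496 and 3602 in HE and 18568, 18790 and 18242 in WT at 50 dpf. The WT libraries at 50 dpf stood apart from all others. The WT libraries at 8 mpf spanned the ranges of both HE groups, with WT replicate 2 at 8 mpf the highest library outside WT at 50 dpf. HE follicles at 50 dpf held a median of 19.4% of the WT level of that age, with a range over the genes of 0% to 33.3%. The WT over HE ratio at 50 dpf was a median of 4.96 and the ratio of WT at 50 dpf to WT at 8 mpf a median of 5.42. 16 genes were under 4-fold and 8 genes over 10-fold in the ratio between genotypes at 50 dpf, and 10 were under 4-fold and 16 over 10-fold in the ratio between ages in WT. The genes just inside the 3-fold limit at 50 dpf were ALDH3A2 (3.003) and gbgt1l9 (3.022), and those just outside were zgc:194627 (2.998) and si:ch211-240j18.2 (2.889).

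**Figure D1:**
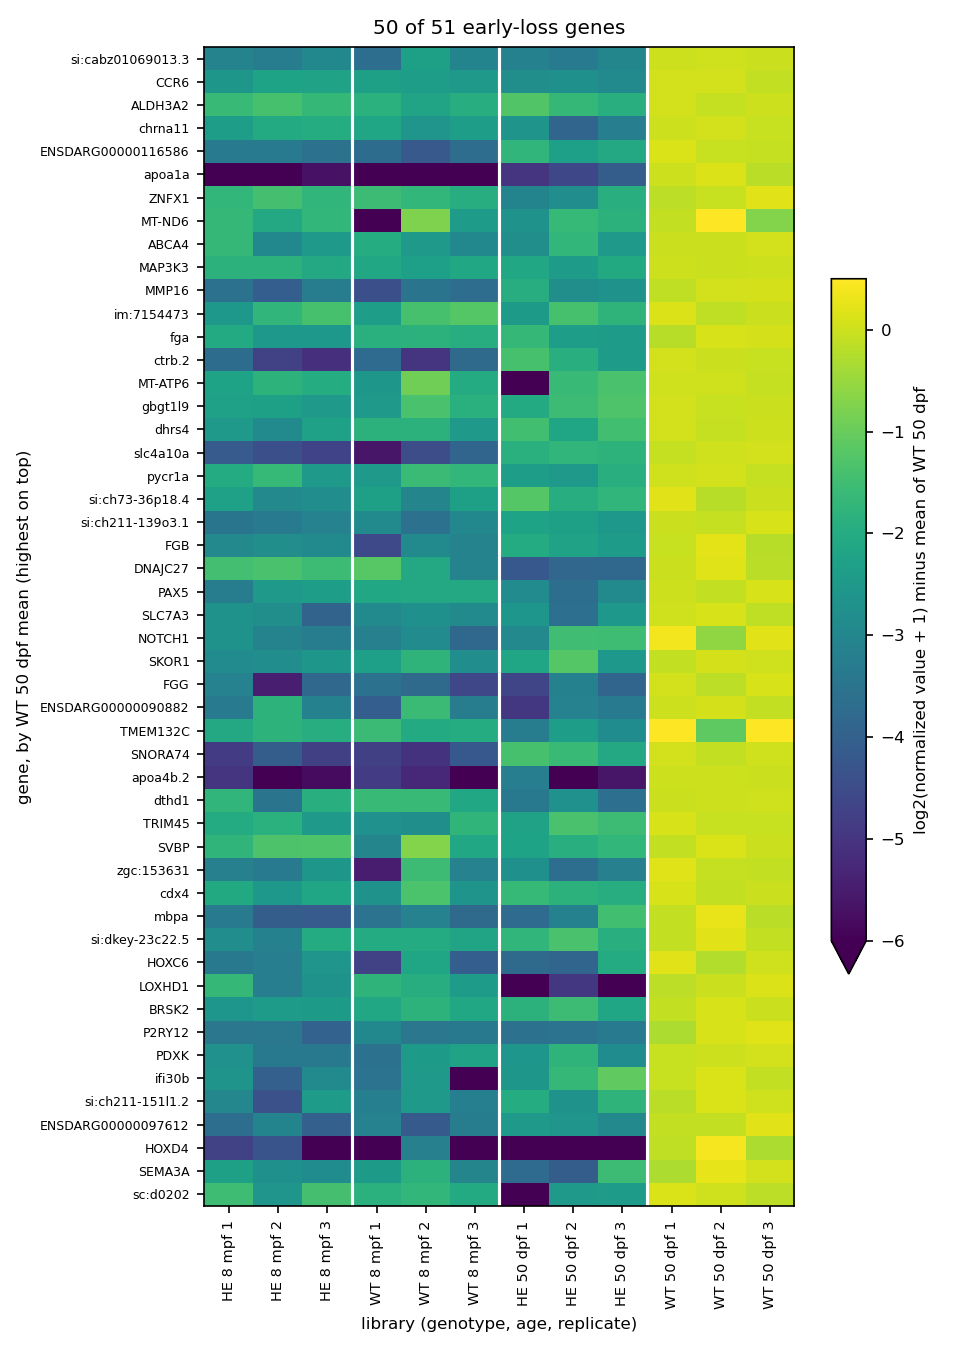
Heat map of 50 of the 51 early-loss genes (rows, highest WT mean at 50 dpf on top) in the 12 libraries (columns: HE then WT at 8 mpf, HE then WT at 50 dpf). Colour gives log2(normalized value + 1) minus the mean of the WT libraries at 50 dpf. The 3 WT columns at 50 dpf are bright in nearly every row, and the other 9 columns are darker, most of all for apoa1a, apoa4b.2 and HOXD4. LOXHD1 is darkest in the 3 HE columns at 50 dpf and less dark at 8 mpf.

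Transcripts of plasma proteins and digestive enzymes were among the early-loss genes. Apolipoprotein A-I, the main protein of high-density lipoprotein, is encoded by apoa1a, which was at 8.74, 0 and 13.3 in HE and 8.81, 6.44 and 3.32 in WT at 8 mpf, against 21.9, 29.3 and 42.3 in HE and 738, 820.5 and 648 in WT at 50 dpf. The lowest WT library at 50 dpf lay far above the highest of the other libraries. The WT over HE ratio at 50 dpf was 23.6, and WT follicles at 50 dpf were 119 times as high as WT follicles at 8 mpf. The apolipoprotein A-IV gene apoa4b.2, whose product takes part in the transport of dietary lipid, was at 4.86, 1.07 and 2.32 in HE and 5.56, 3.88 and 0 in WT at 8 mpf, against 19.1, 1.76 and 2.86 in HE and 187, 188 and 185 in WT at 50 dpf. HE replicate 1 at 50 dpf, at 19.1, was the highest library outside WT at 50 dpf.

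The 3 fibrinogen genes, whose products join to form the clotting protein, were all on the list. The fga gene, for the alpha chain, was at 108, 75.05 and 75.1 in HE and 120.5, 123 and 113 in WT at 8 mpf, against 137, 83.8 and 80.4 in HE and 386, 478 and 466 in WT at 50 dpf. FGB, for the beta chain, was at 34.9, 38.96 and 36.3 in HE and 10.6, 36.2 and 31.3 in WT at 8 mpf, against 68.5, 57.4 and 50.3 in HE and 268, 326 and 239.7 in WT at 50 dpf. FGG, for the gamma chain, was at 23.1, 3.81 and 13.8 in HE and 16.8, 14.6 and 7.501 in WT at 8 mpf, against 7.402, 22.8 and 13.3 in HE and 215, 188 and 223 in WT at 50 dpf. The WT over HE ratios at 50 dpf were 4.42, 4.73 and 14.4 for fga, FGB and FGG, so the gamma chain was the lowest in HE relative to WT. The fibrinogen genes fga and FGB also lie close together in the zebrafish genome, 2 protein-coding genes apart on chromosome 1 in the RefSeq order.

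The ctrb.2 gene, a chymotrypsinogen of the pancreas, was at 32.6, 15.8 and 11.8 in HE and 32.3, 12.9 and 31.6 in WT at 8 mpf, against 166, 115 and 81.6 in HE and 460.1, 434 and 424 in WT at 50 dpf. For ctrb.2 the HE libraries at 50 dpf lay above all libraries of either genotype at 8 mpf.

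Other members encode metabolic enzymes. ALDH3A2, a fatty aldehyde dehydrogenase, was at 354, 411 and 336 in HE and 297, 232 and 276 in WT at 8 mpf, against 451, 338 and 288 in HE and 1124, 1023 and 1087 in WT at 50 dpf. The reductase gene dhrs4 was at 65.03, 49.7 and 77.2 in HE and 107, 106 and 66.05 in WT at 8 mpf, against 137, 83.8 and 136 in HE and 395, 358 and 380.5 in WT at 50 dpf. The proline synthesis gene pycr1a had means of 91.2 ± 25.99 in HE and 101 ± 31.5 in WT at 8 mpf, against 78.1 ± 17.9 in HE and 369.9 ± 17.6 in WT at 50 dpf, and PDXK, pyridoxal kinase of the vitamin B6 pathway, of 13.6 ± 4.03 in HE and 19.3 ± 8.38 in WT at 8 mpf, against 24.3 ± 10.4 in HE and 126 ± 4.83 in WT at 50 dpf (SD, n = 3 each).

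**Figure D2:**
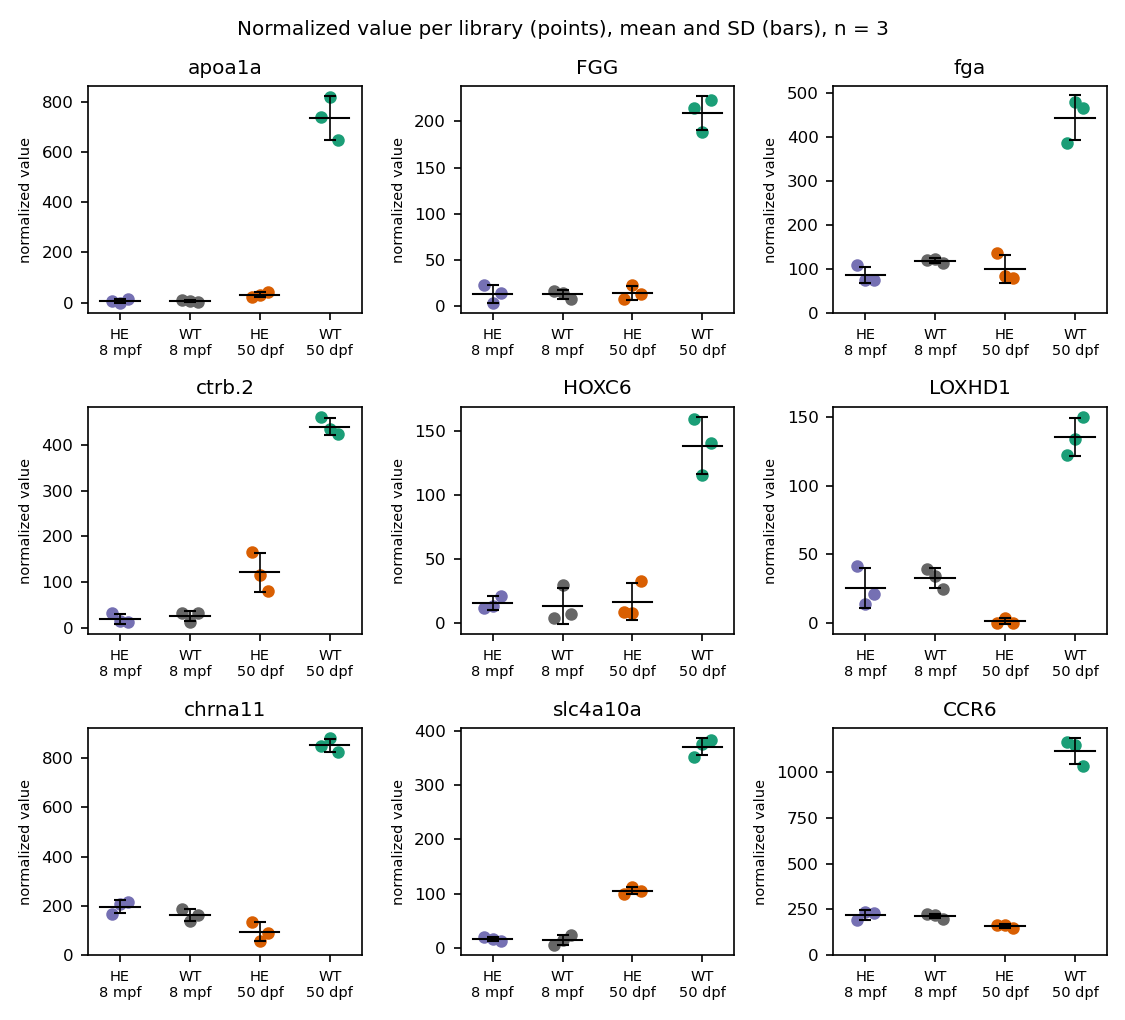
Normalized value (linear axis) in each library for 9 early-loss genes, with groups in the order HE and WT at 8 mpf, then HE and WT at 50 dpf. Points are libraries, the bar is the mean and the whisker the SD over 3 libraries. The WT group at 50 dpf is highest in each panel, and HE at 50 dpf lies above both 8 mpf groups for apoa1a, ctrb.2 and slc4a10a.

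The gene lists used here were chosen with earlier results of these data known, so their counts are a description. A list of liver-made plasma protein genes covered 36 tested genes, among them the 4 members it shares with the early-loss genes (apoa1a, fga, FGB and FGG). Of the 32 other genes tested, 25 were lower and 2 higher in HE than in WT at 50 dpf by edgeR's quasi-likelihood test with Benjamini-Hochberg adjustment, where 21.2% of all 18834 genes tested were lower, 19.6% higher and 40.8% called in either direction. The median log2 fold change of these 32 genes was -2.84, against -0.07 over all genes tested. The summed normalized value of all 34 non-member genes matched lay between 3235 and 4563 in HE and between 5262 and 9946 in WT at 8 mpf, against 3080 to 3818 in HE and 15623 to 16379 in WT at 50 dpf. A single gene, apoeb, had a mean of 6365 in WT follicles at 8 mpf and made up most of that group's sum. In WT follicles 28 of the 32 were lower at 8 mpf than at 50 dpf and 1 was higher, where 26.5% of all genes were lower, 28.7% higher and 55.2% called in either direction. At 8 mpf 15 of the 32 were higher and 2 lower in HE than in WT, where 12.6% of all genes were higher, 15.5% lower and 28.1% called in either direction. Defining liver genes were present: fabp10a, the liver fatty acid binding protein, had means of 85.9 ± 21.2 in HE and 5.5 ± 4.76 in WT at 8 mpf, against 62.5 ± 27.4 in HE and 941 ± 66.5 in WT at 50 dpf (SD, n = 3 each). The fetuin gene fetub averaged 55.5 in HE and 10.5 in WT at 8 mpf, against 277.5 in HE and 2823 in WT at 50 dpf. The transferrin gene tfa averaged 200.2 in HE and 116 in WT at 8 mpf, against 280.2 in HE and 2107 in WT at 50 dpf. Of the matched list, hp was at 0 in every library, and TTR was at 0 in 3 groups with a mean of 4.25 in WT at 50 dpf.

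The exocrine pancreas list, too, was chosen with earlier results known, so its counts are a description. Of its 15 tested genes, 14 were lower at 8 mpf than at 50 dpf in WT, where 26.5% of all genes were lower. In HE 12 of the 15 were lower, where 25.5% of all genes were. At 50 dpf 4 of the 15 (26.7%) were lower and none higher in HE than in WT, a share near the 21.2% of all genes. At 8 mpf 11 of the 15 were higher and none lower in HE than in WT, where 12.6% of all genes were higher. Their summed value lay between 2613 and 4659 in HE and between 923.8 and 1689 in WT at 8 mpf, against 10459.4 to 15610.9 in HE and 18273.9 to 21220.1 in WT at 50 dpf. Every HE library at 50 dpf thus lay below every WT library of that age and above every library at 8 mpf. The count of 4 lower at 50 dpf was 7 when WT replicate 1 at 8 mpf was left out and 8 with scaling by library size alone. That scaling moved all genes, with a median log2 change of -0.40 for HE over WT at 50 dpf in place of -0.07. The shares of all genes called lower in these 2 fits are not given beside the counts, so nothing is read from them. The part that RNA of liver or pancreas cells plays in the values of apoa1a, the fibrinogen genes and ctrb.2 was not tested.

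**Figure D3:**
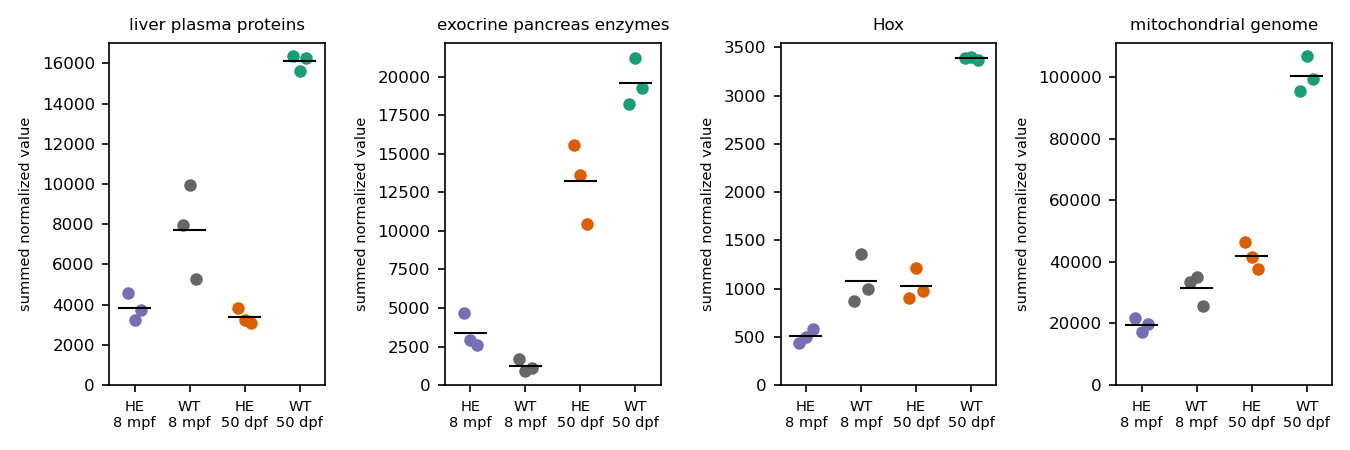
Summed normalized value per library (linear axes) of related genes that are not early-loss genes: 34 liver plasma protein genes, 15 pancreas enzyme genes, 46 Hox genes and 11 genes of the mitochondrial genome. Points are libraries and bars are group means, in the order HE and WT at 8 mpf, HE and WT at 50 dpf. WT at 50 dpf is highest in each panel, and the pancreas panel has HE at 50 dpf nearest to it.

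The mitochondrial genome encodes 13 subunits of the respiratory chain, and 2 of them were on the list. MT-ND6, a subunit of complex I, was at 149, 112 and 144 in HE and 0, 278 and 87.2 in WT at 8 mpf, against 72.3, 149.9 and 133 in HE and 439.8, 835 and 289 in WT at 50 dpf. MT-ATP6, a subunit of ATP synthase, was at 86.6, 117 and 103 in HE and 68.5, 219.6 and 101 in WT at 8 mpf, against 0, 136 and 160.1 in HE and 418, 424 and 394 in WT at 50 dpf. The MT-ND6 values ranged widely within WT follicles, since they were 0 in WT replicate 1 at 8 mpf and 278 in WT replicate 2. A library at 0 thus entered 1 mean of each gene, and their place on the list rests in part on it. For MT-ND6 this concerns the ratio of WT at 50 dpf to WT at 8 mpf, 4.28. For MT-ATP6 it concerns the WT over HE ratio at 50 dpf, 4.17. All 11 mitochondrial genes that were not members had a lower mean in HE than in WT at 50 dpf and a lower mean at 8 mpf than at 50 dpf in WT. Over all genes tested, edgeR's median log2 change was -0.07 for HE over WT at 50 dpf and -0.03 for 8 mpf over 50 dpf in WT. Their median ratios, with WT at 50 dpf on top, were 3.08 over HE at 50 dpf and 3.25 over WT at 8 mpf, and 3 of the 11 reached 3-fold in both. Of all 12316 genes with a WT mean of at least 100 at 50 dpf, 248 met both 3-fold limits without overlap of libraries. That condition is stricter than the one for the 3 of the 11, which were counted on means alone. The summed value of these 11 genes was 17273.5 to 21693.9 in HE and 25728.3 to 35184.9 in WT at 8 mpf, against 37549.3 to 46424.2 in HE and 95490.3 to 106829.5 in WT at 50 dpf. At 8 mpf every HE sum lay below every WT sum, unlike the near-equal means required of the members. This family was looked at because members were seen on the list, so its values are a description.

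Among transcription factor genes, HOXD4 was counted in no HE library at 50 dpf, where 0 counts allow up to 3 per library. HOXD4 was at 3.18, 4.51 and 0 in HE and 0, 11.1 and 0 in WT at 8 mpf, against 0, 0 and 0 in HE and 99.99, 145 and 87.2 in WT at 50 dpf. Against that floor it was at least 22.6-fold lower in HE than in WT at 50 dpf, in CPM. CPM here are counts divided by TMM-scaled library size, not by library size alone. HOXC6 was at 12.3, 13.7 and 21.7 in HE and 4.17, 29.8 and 7.35 in WT at 8 mpf, against 9.304, 8.39 and 33.4 in HE and 159.6, 116 and 141 in WT at 50 dpf. The Hox gene clusters hold 48 genes in the tables, of which 22 that were not members were tested. Of these 22, 19 had a lower mean in HE than in WT at 50 dpf and 18 a lower mean at 8 mpf than at 50 dpf in WT. Over all genes tested, edgeR's median log2 changes in these 2 comparisons were -0.07 and -0.03. In 10 of the 22 the WT mean at 50 dpf was at least 3 times both others. The share of all genes that reach 3-fold in both, with no lowest mean set, is not given here. The 46 Hox genes that were not members summed to 431 to 579 in HE and 876 to 1361 in WT at 8 mpf, against 901 to 1214 in HE and 3373 to 3403 in WT at 50 dpf. Here, too, every HE sum at 8 mpf lay below every WT sum of that age. This family, too, was looked at after its members were seen on the list.

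Other regulators of transcription were cdx4, PAX5 and SKOR1. The caudal-type homeobox gene cdx4, which acts upstream of Hox genes in the embryo, was at 34.96, 24.8 and 32.4 in HE and 22.5, 57.97 and 23.2 in WT at 8 mpf, against 47.1, 41.4 and 37.8 in HE and 160.1, 140.2 and 148 in WT at 50 dpf. PAX5, a paired box factor of B cells and of the developing brain, was at 27.8, 48.5 and 52.5 in HE and 62.7, 64.4 and 63.9 in WT at 8 mpf, against 37.01, 20.7 and 36.2 in HE and 273, 254 and 296 in WT at 50 dpf. SKOR1, a corepressor of the SKI family, was at 27.7, 29.02 and 34.7 in HE and 40.8, 60.1 and 28.7 in WT at 8 mpf, against 46.2, 89.2 and 35.5 in HE and 196, 220.1 and 212 in WT at 50 dpf. HE libraries at 50 dpf lay below every WT library at 8 mpf for PAX5, whereas for cdx4 and SKOR1 these ranges overlapped.

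Several early-loss genes encode receptors or signalling proteins. CCR6, a chemokine receptor, was at 189, 236 and 232 in HE and 223, 217 and 199 in WT at 8 mpf, against 162, 165 and 148 in HE and 1167, 1151 and 1036 in WT at 50 dpf. HE libraries at 50 dpf were below all libraries of either genotype at 8 mpf, and the replicates of each group were close together. The nicotinic acetylcholine receptor subunit chrna11 was at 166, 208 and 216 in HE and 188, 137 and 163 in WT at 8 mpf, against 135, 56.9 and 90.98 in HE and 849, 881 and 826 in WT at 50 dpf. MAP3K3, a kinase that activates MAP kinase cascades, was at 144, 142 and 119.9 in HE and 118, 99.9 and 118 in WT at 8 mpf, against 116, 92.8 and 122 in HE and 505, 505 and 514 in WT at 50 dpf. P2RY12, an ADP receptor of platelets and microglia, had a WT over HE ratio of 12.04 at 50 dpf and was at 11.1, 11.3 and 7.37 in HE and 15.7, 11.1 and 11.6 in WT at 8 mpf, against 10.1, 10.3 and 12.1 in HE and 106, 139 and 147 in WT at 50 dpf. NOTCH1, the receptor of the Notch pathway, was at 31.7, 23.6 and 20.5 in HE and 22.2, 27.6 and 13.6 in WT at 8 mpf, against 25.9, 73.5 and 71.3 in HE and 269, 138 and 238 in WT at 50 dpf, and SEMA3A, a secreted guidance protein, averaged 15.9 ± 3.35 in HE and 19.1 ± 8.26 in WT at 8 mpf, against 15.5 ± 16.5 in HE and 104 ± 20.2 in WT at 50 dpf (SD, n = 3 each). The AMPK-related kinase gene BRSK2 averaged 23.2 ± 1.32 in HE and 32.8 ± 4.49 in WT at 8 mpf, against 37.5 ± 7.95 in HE and 135 ± 9.44 in WT at 50 dpf (SD, n = 3 each).

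Genes for transport, matrix and membrane proteins included LOXHD1, which had the largest WT over HE ratio at 50 dpf of the members with a value in HE. LOXHD1, known in mammals as a protein of hair cell stereocilia, had 2 counts in all 3 HE libraries at 50 dpf together and was at 41.6, 13.5 and 20.6 in HE and 39.1, 33.9 and 24.9 in WT at 8 mpf, against 0, 3.44 and 0 in HE and 123, 134 and 150.1 in WT at 50 dpf. After division of counts by TMM-scaled library size, its WT over HE ratio at 50 dpf was 125. The exact 95% interval was 34.4 to 1036 and covers counting error only, while replicates differed beyond such error. The rule chose LOXHD1 on this difference, so the interval is a description and tests nothing. The bicarbonate transporter gene slc4a10a was at 20.02, 16.4 and 13.3 in HE and 6.64, 15.9 and 24.03 in WT at 8 mpf, against 99.5, 112 and 106 in HE and 352, 376 and 382 in WT at 50 dpf. MMP16, a membrane-bound matrix metalloproteinase, was at 40.6, 28.8 and 50.2 in HE and 22.2, 42.8 and 38.2 in WT at 8 mpf, against 129, 71.5 and 75.8 in HE and 457, 513 and 525 in WT at 50 dpf. ABCA4, a lipid transporter of photoreceptors, was at 162, 65.1 and 91.04 in HE and 131, 88.8 and 64.5 in WT at 8 mpf, against 73.4, 158 and 91.6 in HE and 504, 504 and 532 in WT at 50 dpf. In slc4a10a and MMP16 the HE libraries at 50 dpf stayed above every library at 8 mpf, and in ABCA4 the 3 lower groups overlapped. The cationic amino acid transporter gene SLC7A3 averaged 27.4 ± 11.5 in HE and 30.99 ± 2.14 in WT at 8 mpf, against 31.4 ± 11.9 in HE and 230 ± 17.5 in WT at 50 dpf, and TMEM132C averaged 43.3 ± 4.49 in HE and 46.1 ± 8.21 in WT at 8 mpf, against 23.7 ± 7.45 in HE and 191 ± 97.9 in WT at 50 dpf (SD, n = 3 each).

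The remaining named genes are given together here, and whether they share a role was not tested. ZNFX1, a helicase with zinc fingers that takes part in antiviral defence in mammals, was at 171, 209 and 168 in HE and 189.8, 171 and 144 in WT at 8 mpf, against 65.8, 78.6 and 149 in HE and 502, 536 and 644 in WT at 50 dpf. DNAJC27, a protein with a J domain, was at 99.8, 105 and 94.4 in HE and 121, 64.8 and 31.1 in WT at 8 mpf, against 13.8, 18.1 and 18.9 in HE and 273, 311 and 245 in WT at 50 dpf. SNORA74, a small nucleolar RNA that guides the modification of ribosomal RNA, was at 5.56, 10.2 and 5.89 in HE and 5.87, 4.68 and 9.13 in WT at 8 mpf, against 70.7, 62.03 and 43.8 in HE and 197, 176 and 192 in WT at 50 dpf. It is not comparable in level with long transcripts, since normalized values are not per length. Small nucleolar RNAs often lie within host genes, so its reads may be shared with such a gene. The myelin basic protein gene mbpa averaged 9.57 ± 3.46 in HE and 12.6 ± 3.03 in WT at 8 mpf, against 26.3 ± 23.4 in HE and 149 ± 25.97 in WT at 50 dpf (SD, n = 3 each), and it was the only member on the list of neuron and glia genes. Of the 7 other genes tested on that list, 2 were lower and none higher in HE than in WT at 50 dpf, where 21.2% of all genes were lower. TRIM45, a ubiquitin ligase, ifi30b, a lysosomal thiol reductase, dthd1, SVBP, a partner of the tubulin-modifying vasohibins, and gbgt1l9 had WT over HE ratios of 3.25, 3.22, 9.45, 3.88 and 3.02. The 11 members named only by a clone, locus or gene identifier had WT means at 50 dpf between 102 and 1188 and WT over HE ratios between 3.06 and 12.7. Of these, si:cabz01069013.3 was at 138, 125 and 150.3 in HE and 93.01, 240.1 and 142 in WT at 8 mpf, against 133, 115 and 146 in HE and 1188, 1213 and 1162 in WT at 50 dpf. 10 members carry a symbol that other genes also have in the name table (CCR6, ABCA4, SLC7A3, NOTCH1, TMEM132C, SNORA74, HOXC6, LOXHD1, BRSK2 and PDXK), so the symbol alone does not single out the gene. Whether reads were split between genes of the same symbol was not tested.

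In some members the fold at 50 dpf rested in part on how the authors scaled genes. In 6 members the log2 ratio differed by over 0.5 between normalized values and CPM. In CPM 6 members, not the same 6, were below the 3-fold limit between genotypes at 50 dpf. DNAJC27 at 2.95 (16.3 in normalized values), SKOR1 at 2.26 (3.68) and NOTCH1 at 2.49 (3.78) were in both sets. TRIM45 at 2.69 (3.25), gbgt1l9 at 2.71 (3.02) and dhrs4 at 2.756 (3.175) fell below the limit with a smaller shift. Between ages in WT 3 members were below the 3-fold limit in CPM, with DNAJC27 at 1.39 (3.82), TMEM132C at 1.70 (4.13) and dthd1 at 2.28 (3.41). For ABCA4 the ratio of HE over WT at 8 mpf was 1.12 in normalized values. In edgeR's fit to counts its log2 change there was 1.28 ± 0.20 (SE), beyond the 1.5-fold window of the rule. FGB (0.68 ± 0.30) and HOXD4 (-0.996 ± 1.27) were, among others, also beyond that window in this fit. HOXD4 had 8 counts in all HE libraries at 8 mpf together.

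The comparison of 8 mpf with 50 dpf within HE follicles was not a ratio of the rule, but the values of both groups entered it: HE means at 50 dpf were chosen low and HE means at 8 mpf close to WT. The counts and p-values of the members in this comparison are therefore a description, and nothing is read from their shares against those of all genes. By edgeR's quasi-likelihood test with Benjamini-Hochberg adjustment over all genes, 6 of the 51 were higher at 8 mpf (11.8%, where 28.5% of all genes were higher), 14 were lower (27.5%, where 25.5% were lower) and 31 did not pass, where 53.9% of all genes passed in either direction. With library size as the sole scaling, the split was 10 higher and 11 lower. That scaling moved all genes, with a median log2 change of 0.23 for age in HE, so nothing is read from this split. Of the 31 genes that did not pass, 8 had a 95% interval of the log2 change within -1 to 1, and 23 had an interval reaching past it. The median log2 change over the members was -0.22, against 0.01 over all genes.

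The 6 higher genes were LOXHD1, ABCA4, chrna11, ZNFX1, TMEM132C and CCR6. chrna11 had a mean of 197 in HE at 8 mpf and 94.4 in HE at 50 dpf, a log2 change of 1.14 ± 0.24 (SE, edgeR adjusted p = 0.00135). All its HE libraries at 8 mpf lay above all those at 50 dpf. ZNFX1 rose by 1.02 ± 0.24 (adjusted p = 0.00346), and CCR6 by 0.50 ± 0.13 (adjusted p = 0.00563), in edgeR's test. LOXHD1 had 106 counts in HE at 8 mpf against 2 counts in HE at 50 dpf (edgeR adjusted p = 0.000385). After division by TMM-scaled library size the ratio was 24.7, with an exact 95% interval of 6.66 to 206 for counting error. ABCA4 was called higher on counts (1.41 ± 0.21, edgeR adjusted p = 0.000111), but its normalized values averaged 106 in HE at 8 mpf and 108 in HE at 50 dpf, and limma on the normalized values gave a log2 change of -0.05 (adjusted p = 0.923). DNAJC27 differed the other way, since it did not pass on counts and had a log2 change of 2.503 in limma on the normalized values (adjusted p = 0.000187). TMEM132C rose by 0.90 ± 0.26 in edgeR's test (adjusted p = 0.0112) and did not pass in limma on the normalized values (adjusted p = 0.0927).

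In each of the 14 lower genes the HE mean at 50 dpf was above the WT mean at 8 mpf, by 1.14 to 8.96 times. That largely follows from the rule, which held HE at 8 mpf within 1.5-fold of WT at 8 mpf. SNORA74 fell by 3.04 ± 0.32 on the log2 scale (SE, edgeR adjusted p = 8.94e-06), with means of 7.21 in HE at 8 mpf and 58.8 in HE at 50 dpf. The bicarbonate transporter gene slc4a10a fell by 2.61 ± 0.30 (edgeR adjusted p = 1.5e-05) and the chymotrypsinogen gene ctrb.2 by 2.58 ± 0.41 (edgeR adjusted p = 0.000174). For both, every HE library at 8 mpf lay below every HE library at 50 dpf. The apolipoprotein gene apoa1a fell by 1.82 ± 0.52 (edgeR adjusted p = 0.0107), with means of 7.33 in HE at 8 mpf and 31.2 in HE at 50 dpf. MMP16 fell by 1.06 ± 0.27 and SKOR1 by 1.14 ± 0.29 (edgeR adjusted p = 0.00474 for each), and SKOR1 did not pass in limma on log2 of the normalized value plus 0.1 (log2 change of -0.79, adjusted p = 0.0828). NOTCH1, TRIM45, BRSK2, dhrs4 and 4 genes named only by identifier or clone made up the rest, with ENSDARG00000116586 falling by 1.36 ± 0.18 (edgeR adjusted p = 4.9e-05). The call of apoa1a was lost without HE replicate 3 at 50 dpf (log2 change of -1.52, edgeR adjusted p = 0.0556). In the same limma fit TRIM45 (log2 change of -0.39, adjusted p = 0.362) and NOTCH1 (log2 change of -1.05, adjusted p = 0.0732) did not pass either. TRIM45 lost its call without HE replicate 1 of either age, NOTCH1 without HE replicate 2 or 3 of either age, and BRSK2 without HE replicate 1 or 2 at 50 dpf, any HE replicate at 8 mpf or WT replicate 1 at 50 dpf. The call of si:dkey-23c22.5 was lost without HE replicate 1 or 2 of either age and without WT replicate 1 or 3 at 50 dpf.

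**Figure D4:**
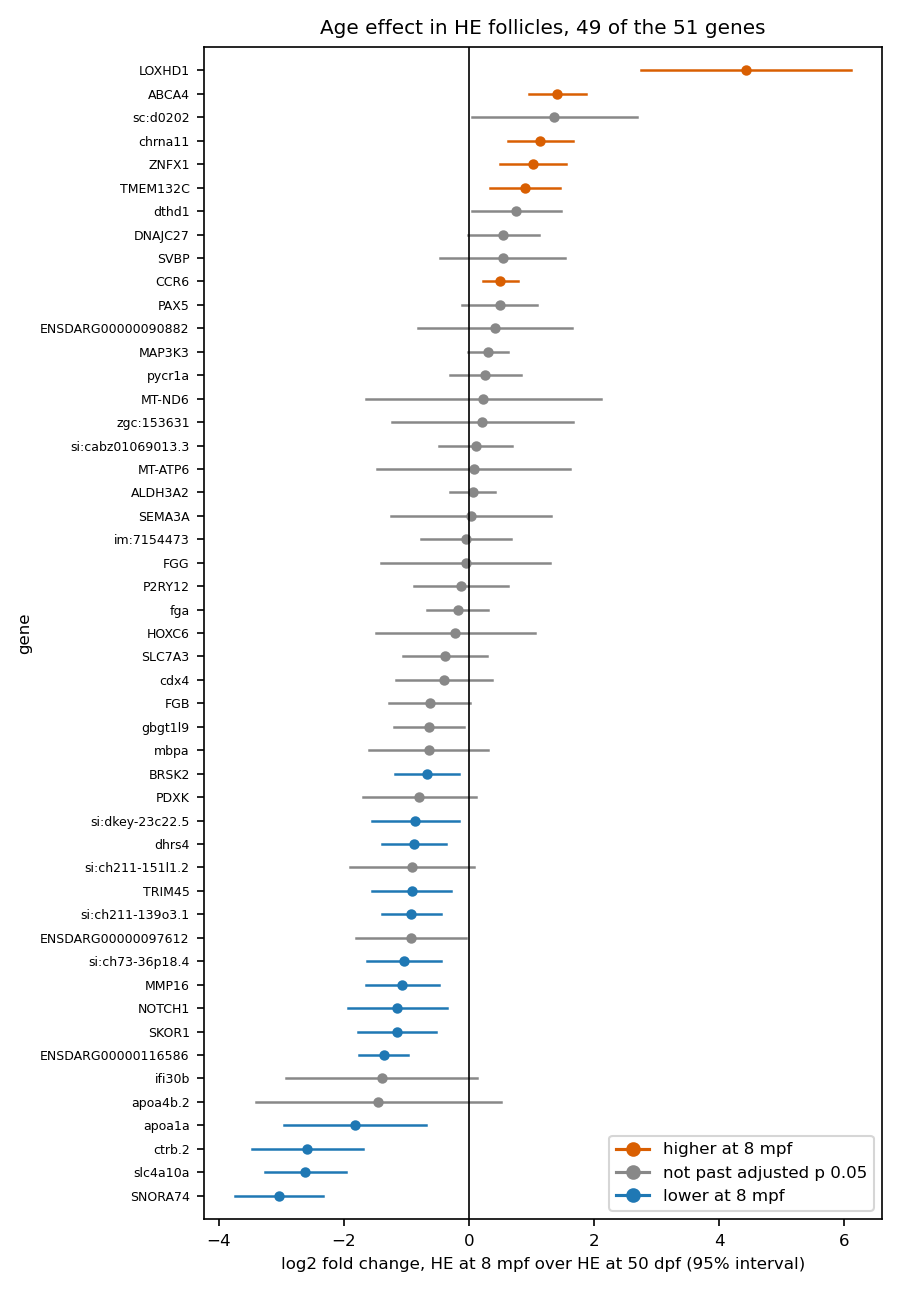
Log2 fold change of HE at 8 mpf over HE at 50 dpf (x axis) with its 95% interval for 49 of the 51 early-loss genes (HOXD4, with 0 counts at 50 dpf, is among those left out). Colour marks genes past an adjusted p of 0.05 in edgeR's test, and 6 genes are higher, 14 lower and the others not past it.

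Against WT follicles at 8 mpf, HE follicles at 50 dpf had a median ratio of 1.14 over the members, with a range of 0 to 8.96. 25 genes lay within 1.5-fold of WT at 8 mpf, 16 lay above and 10 below. All HE libraries at 50 dpf were above all WT libraries at 8 mpf for SNORA74 (means of 58.8 in HE at 50 dpf and 6.56 in WT at 8 mpf), slc4a10a (106 and 15.5) and ctrb.2 (121 and 25.6), among others. For LOXHD1 (means of 1.15 in HE at 50 dpf and 32.6 in WT at 8 mpf) and DNAJC27 (16.9 and 72.3), among others, they were below. These groups differ in both genotype and age, and the effects of both cannot be told apart here.

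**Figure D5:**
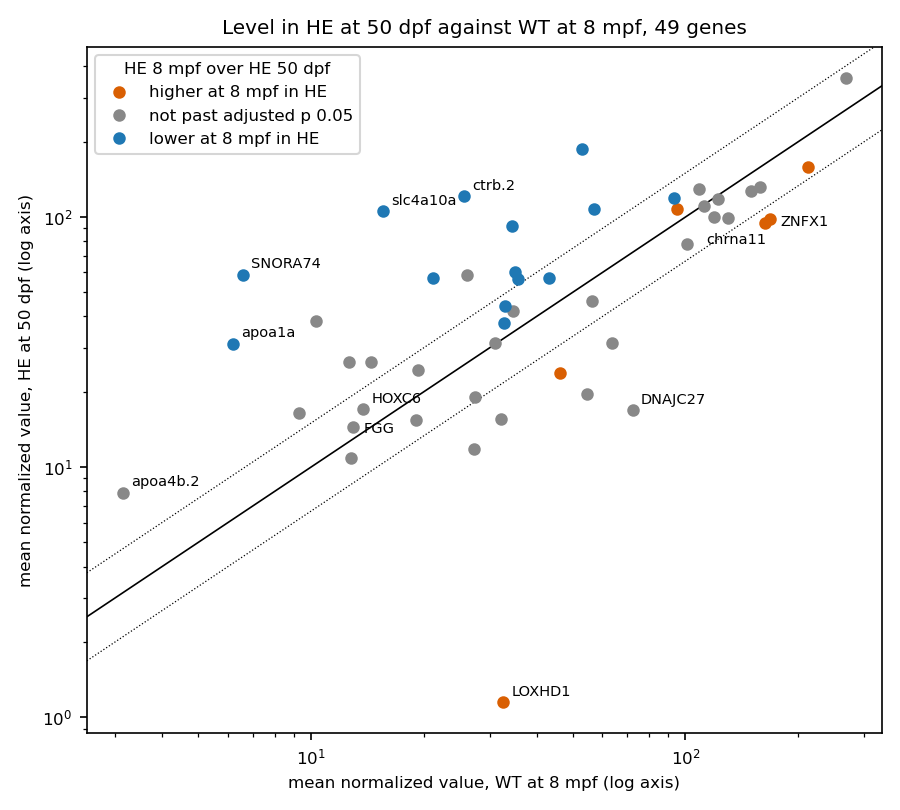
Mean normalized value in HE at 50 dpf (y, log axis) against WT at 8 mpf (x, log axis) for 49 early-loss genes, with the line of equality and dotted lines at 1.5-fold. Colour gives the call of HE at 8 mpf over HE at 50 dpf. SNORA74, slc4a10a and ctrb.2 lie above the band and LOXHD1 and DNAJC27 below it.

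Spread between replicates was smallest in the group where the genes were high. The rule favours this, since it asked for high WT values at 50 dpf without overlap, so the spread is a description. The median coefficient of variation over the members was 23.0% in HE and 35.1% in WT at 8 mpf, against 31.5% in HE and 7.60% in WT at 50 dpf. Over all tested genes the group medians were 11.7% in HE and 16.7% in WT at 8 mpf, against 19.2% in HE and 9.79% in WT at 50 dpf. WT at 50 dpf was thus the lowest group there, too. The highest WT library at 50 dpf was replicate 2 for 21 of the 51 members, replicate 1 for 16 and replicate 3 for 14. Over all tested genes the shares were 36.25%, 30.1% and 33.6%. WT replicate 2 at 8 mpf was the highest of its group for 26 of the 51 members, and for 36.1% of all tested genes. Without that library the rule found 74 genes, 41 of them shared with the 51. By unique symbol 28 members could be placed on 15 chromosomes in the RefSeq order, with at most 4 on a chromosome. Besides fga and FGB, zgc:153631 and si:dkey-23c22.5 were neighbours on chromosome 8.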

How the data were processed

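RNA of primary growth follicles from 12 libraries was extracted with TRIzol and made into libraries with a directional kit, per the labels' protocols. The submitters' processing notes name bcl2fastq, FastQC 0.11.5, HISAT2, StringTie, DESeq2 and the build GRCz11, without roles, and the annotation release is not given in the sources used here. The authors deposited a table of estimated counts per gene, in whole numbers, and a table of normalized values, a linear signal in which counts are divided by sample factors. Of 15798 genes counted in all libraries, 6997 (44.3%) had the same library factors and the rest had gene-specific ones, so counts and normalized values of a gene can differ in fold. Values are not per length. Library totals were 43003225 to 96839220 in HE and 46161655 to 66844694 in WT at 8 mpf, against 31806697 to 38176388 in HE and 31044931 to 58981733 in WT at 50 dpf. The 12 libraries were grouped by genotype and age as labelled. Nothing in the labels gives a batch, so age and any difference in handling between ages cannot be told apart.

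Members were found on the normalized values. Tests used the counts with edgeR 4.0.16 (R 4.3.3): TMM scaling, filterByExpr (18834 genes kept), a quasi-likelihood F test over all 4 groups, Benjamini-Hochberg adjustment over all genes and a call at an adjusted p under 0.05. The fit was checked on simulated data. Alternatives were other scalings and filters, limma 3.58.1 on log2 normalized values plus 1 or 0.1, DESeq2 1.42.0, a replicate block and leaving out each library. Exact intervals cover counting error only. Symbols came from a name table that matched 28988 of 32057 gene IDs, and neighbours from RefSeq's gene order (assembly GRCz12tu), by unique symbol.

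The members and the 20 gene lists were chosen with earlier results of these data known. Genes were named in full by rule: among members with a usable symbol, the 12 with the highest WT mean at 50 dpf, the 6 with the largest ratio over HE at 50 dpf, the 6 with the largest ratio over WT at 8 mpf, the 4 smallest p-values in each direction in HE between ages, and members on a list. Other members were named after their values were seen. The values of 1 member are not reported here, though counts and sums over the members include it. Promoter motifs were not analysed here, since no promoter sequences were used.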

Additional observations from a re-analysis of the deposited data

How the results depend on the processing

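Members called for HE at 8 mpf over HE at 50 dpf numbered 17 to 24 of 51 under every alternative with the same threshold, and 13 (9 lower) when a log2 change of at least 1 was also asked. Library size alone gave 10 higher members in place of 6. The shares of all genes called are not set beside these member counts, so nothing is read from them. With a log2 change of at least 1, the genes called over the whole table numbered 3461 for HE over WT at 50 dpf, 2689 for HE over WT at 8 mpf, 5187 for 8 mpf over 50 dpf in WT and 5087 in HE, against 7691, 5288, 10397 and 10158 without it. The rule itself found 156 genes at a fold of 2, 28 at 4, 83 at a mean of at least 50, 29 at 200, 29 with a narrower and 92 with a wider window at 8 mpf. On CPM it found 48, of which 38 were shared, and without single libraries 48 to 74, the most without WT replicate 2 at 8 mpf. ABCA4 turned to -0.051 and -0.050 in limma on the normalized values with 0.1 and 1 added. Those values averaged 106 in HE at 8 mpf and 108 in HE at 50 dpf. Why counts and normalized values differed for ABCA4 was not tested.

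Scaling by library size alone moved the median log2 change of all genes by -0.33 in HE over WT at 50 dpf, by -0.18 at 8 mpf and by 0.22 for age in HE. Its splits of higher and lower genes were 1618 and 6749, 1337 and 4037, and 6664 and 3442, against 3696 and 3995, 2377 and 2911, and 5364 and 4794 with TMM. Upper quartile scaling moved the median by -0.16 for age in WT and in HE, with splits of 4435 and 6217 in WT and 4394 and 6031 in HE, and it gave 1754 and 3410 for HE over WT at 8 mpf. TMM gave 5397 and 5000 for age in WT. With library size alone, the counts lower at 50 dpf were larger for erythrocytes (8 of 11 tested), oocytes (5 of 27) and early germ cells (3 of 12). They were also larger for motile cilia (7 of 15), cell cycle (11 of 31), sterol synthesis (10 of 20) and neurons and glia (5, with 8 tested). The count over all 18834 genes tested was larger, too, at 6749 against 3995 with TMM, so nothing is read from these list counts.

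Replicate numbers did not pair the libraries: same-numbered libraries of different groups had correlations of their deviations between -0.159 and 0.144, and differently numbered ones between -0.211 and 0.236. With the replicate block 19 members were called (6 higher, 13 lower), and the genes called numbered 7441, 4984, 10198 and 9854 in the 4 comparisons. Leaving out single libraries gave 17 to 24 members. Members that passed without at least 1 library, though not with all, included gbgt1l9, SEMA3A, PAX5, sc:d0202, dthd1, ENSDARG00000097612, si:ch211-151l1.2, FGB, DNAJC27 and ifi30b, some of which also passed under other scalings or tests.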

Other observations

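Lists of other cell types and pathways were counted in HE over WT at 50 dpf by edgeR's quasi-likelihood test with Benjamini-Hochberg adjustment, where 19.6% of all genes were higher and 21.2% lower. These lists, too, were chosen with earlier results of these data known, so the counts are a description. Oocyte genes had 18 of 27 higher and 3 lower (median log2 change of 0.42), and follicle somatic cell genes 1 higher and 11 lower of 26 (median of -1.11). Intestinal genes had 2 higher and 6 lower of 10. The chitinase gene chia.1 had means of 0.48 in HE and 0 in WT at 8 mpf, against 0 in HE and 196 in WT at 50 dpf. Of the p53 target genes 10 of 16 were lower and none higher, 1 of the 10 being the disrupted gene cdkn1a itself (9 of 15 without it), and of the stress and immediate early genes 12 of 24 were lower and 1 higher. Growth factor ligands had 9 higher and 12 lower of 38, cell cycle genes 12 higher and 6 lower of 31, and sterol synthesis genes 6 higher and 5 lower of 20.

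Leukocyte genes had 6 of 13 lower and none higher. Erythrocyte genes had 5 of 11 lower and none higher, but 2 without HE replicate 2 at 50 dpf and 3 without WT replicate 1 or 2 at 50 dpf. Stroma and smooth muscle genes had 5 of 16 lower and 2 higher, but 3 lower each time a WT library at 50 dpf was left out. Skin and other epithelium genes had 6 of 16 lower and 2 higher, endothelium genes 2 lower and 2 higher of 13, and skeletal muscle genes 1 lower and 3 higher of 9. Motile cilia genes had 2 lower and 1 higher of 15, with 4 lower without HE replicate 3 at 50 dpf. Early germ cell and meiosis genes had 5 higher and 0 lower of 12, with 1 lower without single libraries, and testis and male germ cell genes 1 higher and 1 lower of 9. The part of these cell types in the early-loss genes was not tested.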
